A study of Mus musculus with 10 samples.

Results

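The genes described here are 136 genes with modestly more RNA in regulatory T cells of Tfam conditional knockout (KO) mice than in their controls, out of 22553 genes in the count table, 9295 of which averaged at least 5 CPM (counts per 1000000 counted reads of the library). They were selected on the measured values themselves: a mean over the 6 RNA libraries of at least 5 CPM, every KO library above every control library, and a KO mean at least 25% above the control mean. Unnamed gene models, with symbols of Gm plus digits or ending in Rik, were left out. That removed 2 genes, Gm10521 and Gm35339, with KO/control ratios of 1.53 and 1.49. Because the comparison of KO with control chose the members, their values in it are a description. No p-value of it is given for them, and where members are counted among the calls of a fit over all genes, the call restates their choice and supports nothing.

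Regulatory T cells (Treg) are CD4 T cells that depend on the transcription factor Foxp3 and hold other immune cells in check. TFAM packages mitochondrial DNA and is needed for its transcription, so cells without it lose mitochondrially encoded subunits of the respiratory chain. The KO cells came from Tfam fl/fl Foxp3 Yfp-Cre/+ mice and the control cells from Tfam fl/+ Foxp3 Yfp-Cre/+ mice, all female C57BL/6 littermates; no age is given in the sources used here. Cre is produced from the Foxp3 locus in both groups, so the controls also lose 1 copy of Tfam where Cre acts. Sorted YFP+ Treg of spleen and lymph node from 2 to 3 mice were pooled for each library, and poly(A) RNA was sequenced from 3 KO and 3 control pools. Nothing in the labels says whether pools were prepared on separate days or from separate litters, so the spread between them may be partly technical. The ATAC-seq libraries were not analysed here.

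The libraries held 19087757 to 23794028 counted reads in KO and 21419772 to 27490253 in control. Tfam itself stood at 15.5, 14.3 and 16.5 CPM in KO libraries 1 to 3, against 25.7, 31.4 and 42.2 CPM in control libraries 1 to 3 (log2 fold change -1.09 ± 0.17 SE, adjusted p = 0.0200, edgeR quasi-likelihood test over all genes). Foxp3 averaged 814 ± 47.6 CPM in KO and 746 ± 86.2 CPM in control, and Il2ra, the IL-2 receptor alpha chain, 321 ± 5.62 CPM in KO and 314 ± 4.28 CPM in control (SD, n = 3 each). The 13 tested genes of a Treg identity list summed to 4315 to 4699 CPM in KO and 4658 to 4899 CPM in control, with 4 fitted above 0 (Foxp3 and Il2ra among them) and a median log2 fold change of -0.11. In that list edgeR and limma-voom called 0 genes, DESeq2 1 lower and edgeR with the replicate number as a block 1 higher and 3 lower, and 4 were lower at an unadjusted p under 0.05. The 12 genes of a B cell list summed to 399 to 436 CPM in KO and 552 to 589 CPM in control, mostly Ighm. Of the 9 tested, 5 were fitted above 0, with a median log2 fold change of 0.10. Called lower was 1 gene each by edgeR, DESeq2 and limma-voom, and 3 with the replicate number as a block. Cd79b averaged 9.99 CPM in KO and 13.9 CPM in control, while Pax5 and Ms4a1 were at or below 0.799 and 1.18 CPM in every library. Myeloid markers summed to 479 to 1289 CPM in KO and 423 to 936 CPM in control, with 13 of 13 tested markers fitted above 0, 0 called by edgeR, DESeq2 or limma-voom, 0 at an unadjusted p under 0.05, 3 called higher with the replicate number as a block, and the granulocyte genes S100a8 and S100a9 at or near 0. In each group the library numbered 2 held the most myeloid RNA; whether a difference in such a sum is more cells or more RNA per cell cannot be told apart in bulk RNA.

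The excess of the members was small. Their KO/control ratios, each the KO mean CPM over the control mean CPM, had a median of 1.32 and ran from the 25% excess set by the rule up to 2.05. In 112 members the ratio was below 1.4, in 10 it was at least 1.5, and in 1, Cfap74, it was at least 2. Over all 9295 genes of at least 5 CPM the median ratio was 0.988. The same thresholds turned the other way found 328 genes lower in KO, with a median fold of 1.42 and 60 genes of at least 2-fold, so the side opposite to the members was both larger and reached further, up to 8.74-fold. Every KO library lay above every control library in 768 of the 9295 genes (8.26%) and below in 989 (10.6%), and the members are those of the 768 that also reached the 25% excess and carry a gene name.

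The gap between the groups was narrow in most members. The lowest KO library exceeded the highest control library by a median factor of 1.11, by at least 1.2 in 17 members and by 1.29 at most. In 8 members even the lowest KO library was at least 25% above the highest control library: Als2cl, Zfp950, Clcf1, Gli1, Hid1, Lgals4, Palm3 and Slc25a27. Many members were counted at low depth. A mean under 10 CPM was found in 46 of the 136 (33.8%), against 11.6% of all genes of at least 5 CPM, and the median level was 16.5 CPM, against 43.7 CPM. Levels in CPM are not divided by gene length and are compared here within a gene only.

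**Figure D1:**
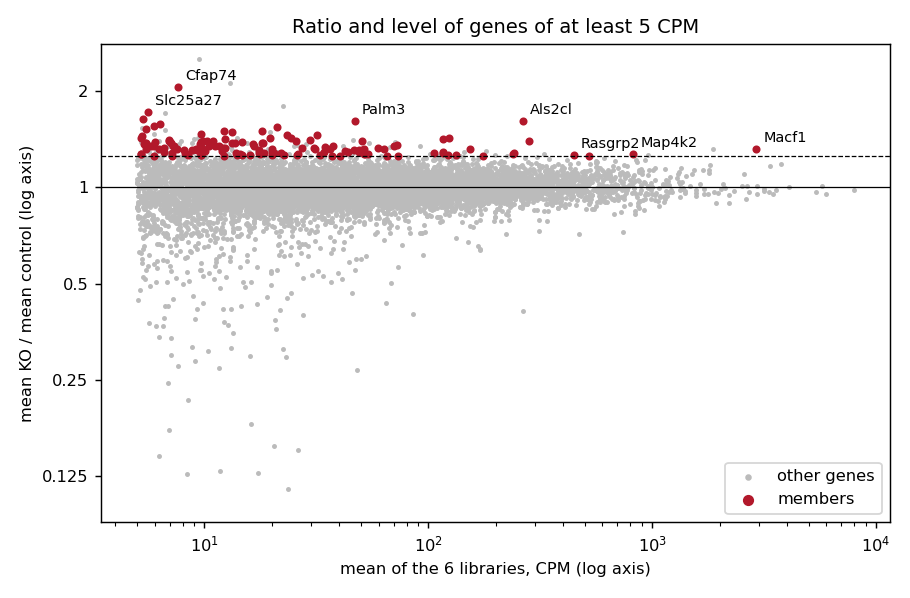
Each point is a gene with a mean of at least 5 CPM; the horizontal axis is the mean of the 6 libraries in CPM and the vertical axis the ratio of the KO mean to the control mean, both on log scales, with members in red and the dashed line at the 25% threshold. The members fill a thin band from that line up to 2.05 at all levels, while grey points below 1 reach 8.74-fold lower.

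In the fit across all 11990 testable genes, 12 genes were called higher in KO (0.100%) and 167 lower (1.39%), at an adjusted p under 0.05. All 136 members passed the filter on low counts, and 10 of them (7.35%) were among the 12 called higher: Als2cl, Palm3, Zfp950, Clcf1, Hid1, Col11a2, Lgals4, Rhbdl1, Rasgrp2 and Fam189b. Since the members were chosen on this contrast, nothing is read from that share. In the gene lists below, every gene that edgeR without the block called higher was a member, so nothing is read from those calls either. With the replicate number as a block, which uses the shared behaviour of same-numbered pools, 236 genes were called higher (1.97%) and 526 lower, and 85 of the 236 were members. DESeq2 called 76 genes higher, 48 of them members, and limma-voom 3, all of them members. The edgeR calls were fragile: without KO pool 1, KO pool 2, KO pool 3 or control pool 2 the number of genes called higher was 0, with 388 to 653 genes higher at an unadjusted p under 0.05, and without control pool 3 it was 1.

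The GTPase regulators held 6 members. Apart from Nisch, these proteins switch small GTPases on (exchange factors) or off (GTPase-activating proteins) and so control vesicle traffic, adhesion and the cytoskeleton. Als2cl, which carries domains of guanine nucleotide exchange factors, had 319, 298 and 365 CPM in KO libraries 1 to 3, against 232, 183 and 195 CPM in control libraries 1 to 3, which is 327 ± 34.3 and 203 ± 25.3 CPM on average (SD, n = 3 each) and a ratio of 1.61. Its lowest KO pool was well clear of its highest control pool, by a factor of 1.29, the widest gap among the members. Rasgrp2, the calcium- and diacylglycerol-responsive exchange factor for RAP1, the GTPase that switches on integrins, had 494, 484 and 517 CPM in KO, against 411, 389 and 385 CPM in control (ratio 1.26). The pools of both groups lay close together and the groups were well apart. Rasgrp1, the main Ras exchange factor of T cells, had a ratio of 1.07.

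Nisch, an integrin-binding protein that restrains cell migration, had 582, 555 and 597 CPM in KO, against 539, 469 and 378 CPM in control, and here the controls were spread over a wider range than the KO pools. Dennd6b, of the DENN family of RAB exchange factors, had 57.1, 55.0 and 60.9 CPM in KO, against 50.2, 42.3 and 44.1 CPM in control. Dock4, a Rac exchange factor, and Arhgap29, a GTPase-activating protein, complete this set at ratios of 1.31 and 1.27. Among 29 tested genes of a list of Ras and Rap1 exchange factors and GTPase activators, edgeR called 1 higher, the member Rasgrp2, and 1 lower, Rapgef5 (0.504 CPM in KO against 1.82 CPM in control, log2 fold change -1.82 ± 0.28 SE, adjusted p = 0.0200, edgeR). With the block 3 were called higher and 1 lower. The median log2 fold change of that list was 0.13, against -0.005 over all genes tested. In a list of 24 tested RAB exchange factors and related vesicle traffic regulators, edgeR called 2 higher, the members Als2cl and Hid1, and 0 lower (1 at an unadjusted p under 0.05, 0 by DESeq2 or limma-voom). With the block 5 were called higher and 1 lower, and the median log2 fold change was 0.05. Over all genes tested, edgeR called 0.100% higher, or 1.97% with the block.

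The starts of 4 members, 2 of them from this set, are printed to show how different their promoters are. Each is the 300-base window of the RefSeq promoter table on build GRCm38.p6, 250 bases before to 50 bases after the start, with every CpG dinucleotide in capitals. The 4 were picked after their values were seen. Als2cl and Rasgrp2 have 2 windows each in the table, and the first is shown. Als2cl, chr9:110879924-110880223, plus strand, 33 CpG:
Als2cl: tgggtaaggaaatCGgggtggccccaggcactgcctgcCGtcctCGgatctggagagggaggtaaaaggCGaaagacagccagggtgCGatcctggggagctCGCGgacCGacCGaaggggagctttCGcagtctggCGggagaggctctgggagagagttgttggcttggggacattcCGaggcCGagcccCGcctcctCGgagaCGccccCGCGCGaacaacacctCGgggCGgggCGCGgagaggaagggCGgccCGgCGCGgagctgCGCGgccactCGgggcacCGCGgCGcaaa
Rasgrp2, chr19:6399625-6399924, plus strand, 40 CpG:
Rasgrp2: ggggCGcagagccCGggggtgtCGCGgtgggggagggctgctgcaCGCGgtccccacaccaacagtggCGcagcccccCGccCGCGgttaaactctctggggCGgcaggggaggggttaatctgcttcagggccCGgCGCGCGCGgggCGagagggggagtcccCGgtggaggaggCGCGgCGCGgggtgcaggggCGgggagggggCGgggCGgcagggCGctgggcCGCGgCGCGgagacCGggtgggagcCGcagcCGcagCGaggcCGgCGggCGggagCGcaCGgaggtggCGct
Col11a2, chr17:34038888-34039187, plus strand, 16 CpG:
Col11a2: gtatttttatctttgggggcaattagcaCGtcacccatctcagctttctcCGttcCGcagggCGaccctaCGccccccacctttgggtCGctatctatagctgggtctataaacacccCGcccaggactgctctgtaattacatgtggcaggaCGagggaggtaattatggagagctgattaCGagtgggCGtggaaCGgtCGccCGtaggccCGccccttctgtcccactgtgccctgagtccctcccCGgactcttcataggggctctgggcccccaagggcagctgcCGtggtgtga
Lgals4, chr7:28833544-28833843, plus strand, 4 CpG:
Lgals4: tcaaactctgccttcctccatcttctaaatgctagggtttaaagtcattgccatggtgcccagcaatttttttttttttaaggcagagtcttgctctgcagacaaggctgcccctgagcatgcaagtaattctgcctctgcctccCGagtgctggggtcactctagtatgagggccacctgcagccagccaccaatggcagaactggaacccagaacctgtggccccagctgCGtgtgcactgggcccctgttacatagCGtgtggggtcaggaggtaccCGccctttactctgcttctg
The printed windows of Als2cl and Rasgrp2 are dense in CpG, with 70% and 80% G and C, and the Lgals4 window is nearly free of CpG at 54%. Averaged over both windows, Als2cl had 72% and 35.5 CpG, and Rasgrp2 73% and 31.5 CpG. The other GTPase regulators, Nisch, Arhgap29, Dennd6b and Dock4, had 16, 16, 25 and 29 CpG.

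Across the members this mix leaned to CpG-poor starts. A window was found for 109 members and for 7511 of the genes of at least 5 CPM. The median number of CpG was 16 in members and 22 in all these genes, and fewer than 10 CpG were present in 34 members (31.2%), against 12.2% of the genes. Low level went with few CpG, so the comparison was repeated below 20 CPM: there 39.3% of 56 members and 17.6% of 2036 genes had fewer than 10. CpG-poor promoters are typical of tissue-restricted genes, CpG islands of broadly used ones. The shares are descriptions of chosen genes and were not tested.

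**Figure D2:**
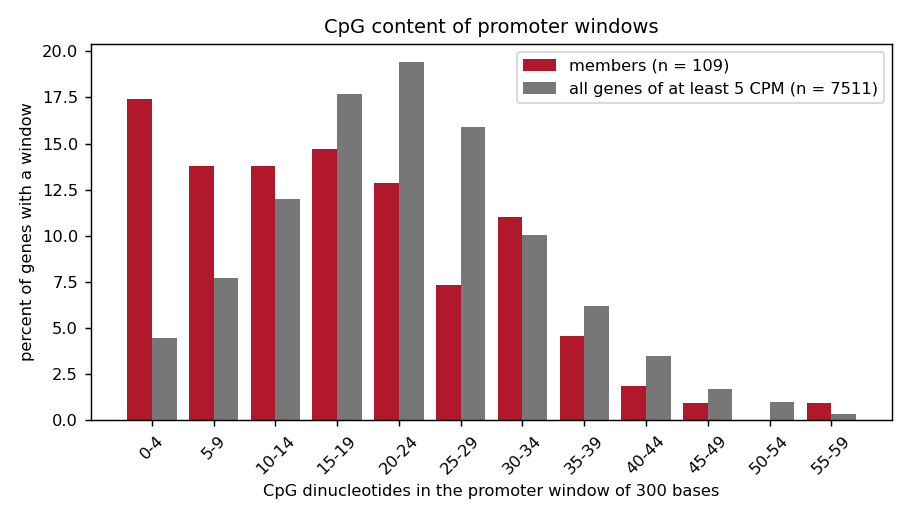
Bars give the percent of genes with a promoter window (vertical axis) by the number of CpG dinucleotides in the 300 bases (horizontal axis), for 109 members in red and all 7511 genes of at least 5 CPM in grey. Members exceed the grey bars in the bins below 15 CpG, and the median is 16 in members and 22 in all genes.

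Short motifs were searched in the same windows on both strands. A gene was counted if any of its windows held the motif, and the number of windows per gene was not matched. The ETS motif CCGGAAG was present in 11.9% of the 109 members and 23.6% of all genes with a window. The NRF1 motif core TGCGCA was in 11.01% and 17.7%. Both motifs contain a CpG, as does the cyclic AMP element TGACGTCA, which was found in 1 member (0.917%) and in 3.74% of all these genes. The TATA box TATAAA was in 8.26% of members and 7.75% of all these genes. The E-box CANNTG was in 66.1% and 66.0%, and the CCAAT box CCAAT in 44.95% and 42.8%. A match marks letters in a window and no site of binding.

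Among secreted and cell-bound ligands and secreted enzymes, 11 genes were members. Clcf1 encodes a cytokine of the IL-6 family that signals through the CNTF receptor, gp130 and the LIF receptor. It had 57.6, 58.7 and 60.1 CPM in KO, against 45.1, 43.2 and 38.4 CPM in control, a ratio of 1.39 with almost no spread among the KO pools. Of the 14 tested genes of an IL-6 family list, edgeR called 1 higher, the member Clcf1, and 0 lower (2 at an unadjusted p under 0.05, 1 by DESeq2, 0 by limma-voom and 1 with the block), and the list's median log2 fold change was 0.07. Lgals4, a tandem-repeat galectin best known from gut epithelium, had 19.1, 18.6 and 19.5 CPM in KO, against 14.7, 13.9 and 14.0 CPM in control, both groups tight. A galectin list had 8 tested genes, 1 of them Lgals3bp, which encodes a galectin-binding protein and no galectin. In it 2 were fitted above 0, Lgals4 among them, and the median log2 fold change was -0.25. In that list edgeR called 1 higher, Lgals4, and 0 lower, and limma-voom called 0. DESeq2 and edgeR with the block each called 1 higher and 1 lower. Mst1, the macrophage-stimulating protein that binds the receptor RON, had 11.9, 11.6 and 10.9 CPM in KO, against 8.555, 9.10 and 6.95 CPM in control.

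The other 8 of these genes had ratios from 1.26 to 1.43. They were the dendritic cell growth factor Flt3l, the complement protease Masp2, the DNases Dnase1 and Dnase1l2, anti-Mullerian hormone (Amh), the Notch ligand Jag2, netrin-4 (Ntn4) and the proprotein convertase Pcsk4. Flt3l, with the ratio of 1.43, had 20.8, 21.0 and 27.7 CPM in KO, against 18.02, 15.8 and 14.99 CPM in control, so KO pool 3 stood above the other KO pools. Jag2 had its highest level in KO pool 2, at 24.8 CPM. In a list of Notch and Wnt signalling genes 0 of 23 tested were called by edgeR, DESeq2 or limma-voom and 2 were called higher with the block; 3 were higher and 1 lower at an unadjusted p under 0.05, and the median log2 fold change was 0.04. Masp2 and Dnase1 overlap Tardbp and Trap1 in the RefSeq annotation.

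Surface receptors, adhesion molecules and matrix proteins formed the largest set, with 20 members and a median ratio of 1.33. Col11a2, a fibrillar collagen chain of cartilage, had 81.4, 86.1 and 83.1 CPM in KO, against 67.9, 56.7 and 60.2 CPM in control, on average 83.5 ± 2.40 and 61.6 ± 5.72 CPM (SD, n = 3 each). Col20a1, another collagen gene, had 13.9, 12.9 and 13.3 CPM in KO, against 10.46, 10.2 and 9.28 CPM in control. Of the 5 collagen genes with at least 5 CPM, these 2 lay above control without overlap and 0 below. Over all genes at that level the shares were 8.26% and 10.6%. Both genes were chosen for this lack of overlap, so nothing is read from the count. Stromal collagen genes were almost absent, with Col1a1 at 0.776 CPM in KO and 1.29 CPM in control. Of a list of 10 stromal and endothelial markers, Ccl21a, Pdpn and Lum were at 0 in every library. Pecam1 of the same list averaged 251 CPM in KO and 246 CPM in control and made up nearly all of the list's sum. Itga10, a collagen-binding integrin chain, had 6.68, 6.42 and 8.70 CPM in KO, against 5.86, 4.155 and 4.04 CPM in control, with KO pool 3 and control pool 1 at the high end of their groups.

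Rhbdl1, a rhomboid protease that cuts proteins within the membrane, had 30.1, 29.8 and 33.4 CPM in KO, against 24.3, 22.9 and 23.1 CPM in control. The 8 tested rhomboid family genes had a median log2 fold change of -0.03. Fam189b, a membrane protein of little described role, had 193, 196 and 197 CPM in KO, against 163, 157 and 146 CPM in control, a ratio of 1.255 with both groups tight. The remaining members here were the receptors Tgfbr3l, Ager, Avpr2, Chrnb2, Gabbr1, Stra6 and Lpar2, the surface proteins Ms4a6c, Cd72, Mamdc4, Tmem8b, Sez6l2, L1cam and Lrch4, and the Wnt receptor ubiquitin ligase Znrf3. Their ratios ran from the threshold in Lrch4 to 1.46 in Tgfbr3l. Tgfbr3, the long relative of Tgfbr3l that binds TGF-beta, had a ratio of 1.24, just under the threshold.

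Gabbr1, a subunit of the GABA-B receptor, had 148, 152 and 223 CPM in KO, against 139, 132 and 128 CPM in control, so most of its ratio of 1.31 came from KO pool 3. Its partner Gabbr2 was at or under 0.210 CPM in every library. Cd72, known from B cells, had 39.0, 43.0 and 36.3 CPM in KO, against 30.0, 26.8 and 31.9 CPM in control, while the summed B cell markers were lower in KO, at 399 to 436 CPM against 552 to 589 CPM. Nearly all of that sum was Ighm (393 CPM in KO, 549 CPM in control, log2 fold change -0.47, adjusted p = 0.0134, edgeR). Ms4a6c, of a family expressed in myeloid cells, had 27.5, 27.0 and 35.4 CPM in KO, against 24.1, 21.7 and 18.7 CPM in control. The part of B cell or myeloid RNA in these genes was not tested.

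The set of cilia, motors and the cytoskeleton held 15 members, and it included the largest ratio of all. Cfap74, an axoneme protein of motile cilia, had 7.10, 5.99 and 17.7 CPM in KO, against 5.97, 4.30 and 4.73 CPM in control. Its ratio of 2.05 rests on KO pool 3, which was 2.70 times the mean of the other KO pools, and KO pool 2 lay only 1.003 times above the highest control. Ccdc39, a ruler of axonemal dynein spacing, showed the same shape, with 5.93, 4.78 and 9.06 CPM in KO, against 3.88, 4.48 and 3.71 CPM in control. Treg carry no motile cilia. Cfap74 and Ccdc39 overlap Gabrd and Ttc14 in the annotation, and Ttc14 had a ratio of 1.19.

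Palm3, a lipid-anchored paralemmin of the inner membrane face, had 51.0, 55.3 and 67.1 CPM in KO, against 40.8, 36.6 and 30.4 CPM in control, which is 57.8 ± 8.32 and 36.0 ± 5.19 CPM on average (SD, n = 3 each). Every KO pool was well above the highest control. Palm3 overlaps Il27ra, which had a ratio of 1.09, and how strand was treated in the counting is not given in the sources used here, so reads of overlapping genes cannot be assigned with certainty. Afap1, an actin filament-binding adaptor of Src, had 23.7, 23.3 and 18.4 CPM in KO, against 16.4, 14.9 and 12.2 CPM in control; in both groups pool 3 was the lowest. Dnhd1, a dynein heavy chain-like protein, had 12.2, 12.5 and 13.6 CPM in KO, against 9.54, 8.12 and 9.82 CPM in control, with no pool standing apart.

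Macf1, the giant crosslinker of actin and microtubules, had the most reads of any member. It had 3301, 3059 and 3578.5 CPM in KO, against 2939, 2631 and 2002 CPM in control, and control pool 3 was far below the other controls. Its KO pools were spread less, with pool 3 the highest. Cnn3, an actin-binding calponin, had 23.4, 21.9 and 23.1 CPM in KO, against 18.3, 16.7 and 17.1 CPM in control. The other members of the set include the tubulin glycylase Ttll3, the nesprin Syne4, the muscle myosin light chain Mylpf, the dynein heavy chain Dnah17, Eml5, Spice1 and Cep95, with ratios from 1.255 to 1.35. Of these, Ttll3, Mylpf, Dnah17, Eml5 and Cep95 overlap other genes in the annotation. KO pool 3 was the highest KO library in 11 of the 15 members of the set.

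**Figure D3:**
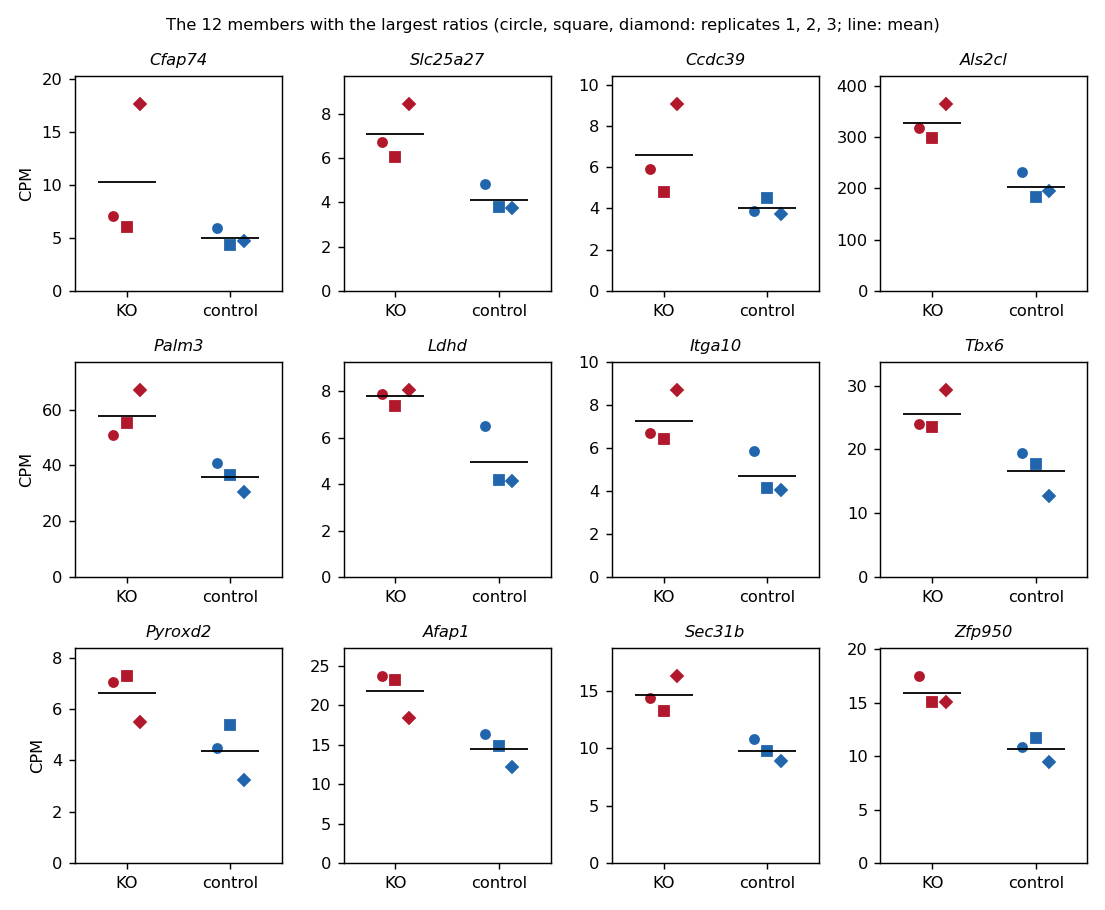
Each panel shows CPM (vertical axis, from 0) of one of the 12 members with the largest KO/control ratios in the 3 KO pools (red, left) and 3 control pools (blue, right), with replicates 1, 2 and 3 as circle, square and diamond and the mean as a line. Cfap74 and Ccdc39 show 1 KO pool far above the others, and Als2cl and Palm3 show a clear gap between all pools of the groups.

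Tfam acts in mitochondria, and 9 members were placed in a mitochondrial set together with carnitine transport. Their median ratio of 1.35 lay within the range of the other sets, and a link of these ratios to the function of Tfam was not tested. All 9 proteins are encoded in the nucleus. Slc25a27 (UCP4), a mitochondrial carrier of the uncoupling protein family, had 6.72, 6.04 and 8.43 CPM in KO, against 4.83, 3.78 and 3.75 CPM in control, and its ratio of 1.72 was the next below that of Cfap74, on counts of 81 to 161 reads. Ldhd, the mitochondrial D-lactate dehydrogenase, had 7.90, 7.39 and 8.07 CPM in KO, against 6.50, 4.202 and 4.15 CPM in control, where the KO pools lay close together and control pool 1 stood above the other controls. Pyroxd2, an oxidoreductase-like protein of mitochondria, had 7.06, 7.29 and 5.50 CPM in KO, against 4.49, 5.37 and 3.24 CPM in control. Its KO pool 3 and control pool 2 almost met, at 5.50 and 5.37 CPM.

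Perm1, a regulator of oxidative metabolism known from muscle, had 16.9, 15.7 and 16.8 CPM in KO, against 13.3, 13.2 and 12.7 CPM in control. Acp6, a mitochondrial lysophosphatidic acid phosphatase, had 43.2, 43.2 and 47.8 CPM in KO, against 36.6, 34.4 and 36.4 CPM in control, and sits at the threshold with a ratio of 1.2502. Cpt1b, the muscle form of the enzyme that loads fatty acids onto carnitine for import, had 8.03, 7.44 and 9.43 CPM in KO, against 6.50, 6.77 and 5.20 CPM in control, while Cpt1a, the form of liver and lymphocytes, had a ratio of 1.03. Slc22a5, the plasma membrane carnitine transporter, had 62.1, 54.3 and 63.7 CPM in KO, against 53.4, 43.1 and 45.4 CPM in control, while Slc25a20, the inner membrane carnitine carrier, had a ratio of 0.912. Mss51 and Letm2 complete the set at 1.35 and 1.28. Ldha and Ldhb, the L-lactate dehydrogenases, had ratios of 0.939 and 0.908, and Ucp2 0.930. In a list of integrated and mitochondrial stress response genes with 15 tested, 0 were called by edgeR with or without the block, DESeq2 or limma-voom, 2 were lower at an unadjusted p under 0.05 and the median log2 fold change was -0.001. None of its genes was a member.

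Other metabolic enzymes numbered 9. Carns1, carnosine synthase, had 150.3, 148 and 138 CPM in KO, against 117, 103 and 84.8 CPM in control, a ratio of 1.43 with the KO pools close and control pool 3 lowest. Phyhd1, a dioxygenase-like protein related to phytanoyl-CoA hydroxylase, had 11.2, 10.8 and 11.997 CPM in KO, against 9.09, 8.96 and 8.15 CPM in control. Car15, a carbonic anhydrase, had 9.16, 9.22 and 9.17 CPM in KO, against 7.64, 7.33 and 6.51 CPM in control, and its KO pools were nearly identical. The other 6 were muscle glycogen phosphorylase (Pygm), the bile acid enzyme Hsd3b7, Cyp2d22, the amine oxidase Aoc2, the sterol reductase Tm7sf2 and the retinol dehydrogenase Rdh5, with ratios from 1.26 to 1.38.

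Channels and transporters outside mitochondria numbered 7. Tmc4, of the transmembrane channel-like family, had 24.6, 27.1 and 31.6 CPM in KO, against 21.3, 18.9 and 17.2 CPM in control. Tmie, a component of the mechanotransduction channel of hair cells, had 5.93, 6.62 and 6.39 CPM in KO, against 4.98, 4.015 and 4.77 CPM in control. Tmie is the genomic neighbour of Als2cl on chromosome 9. Clcn2, a voltage-gated chloride channel, had 15.1, 14.8 and 16.3 CPM in KO, against 12.6, 10.6 and 10.51 CPM in control, the controls split between pool 1 and the others. The inositol transporter Slc5a3, the osmosensitive channel Tmem63b, the acyl-CoA synthetase Slc27a3 and Slc22a17 had ratios from 1.254 to 1.34. Over all 164 solute carrier genes of at least 5 CPM, 20 lay above and 16 below control without overlap, with a median ratio of 0.997. Among the 20 were 5 members, chosen for this lack of overlap. The shares over all genes at that level were 8.26% and 10.6%.

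Membrane traffic held 7 members. Hid1, a protein of the trans-Golgi network needed for secretory granules in endocrine cells, had 21.1, 21.7 and 20.5 CPM in KO, against 15.6, 16.2 and 14.3 CPM in control. Its KO pools were nearly level. Sec31b, a subunit of the COPII coat that buds vesicles from the endoplasmic reticulum, had 14.5, 13.3 and 16.3 CPM in KO, against 10.8, 9.76 and 8.88 CPM in control (ratio 1.498). Ermard, a protein of the endoplasmic reticulum membrane, had 17.9, 18.01 and 20.9 CPM in KO, against 14.4, 14.9 and 12.5 CPM in control. Doc2g, Fam126b, the SNARE protein Stx1a and the BEACH-domain protein Nbeal1 had ratios from 1.26 to 1.401.

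Kinases, phosphatases and signalling adaptors numbered 10. Pik3ip1, a surface protein that inhibits PI3 kinase and restrains T cell activation, had 134, 129 and 147 CPM in KO, against 106, 79.5 and 104 CPM in control, with control pool 2 well below the other controls. Map4k2, a kinase upstream of JNK, had 889, 863 and 1002 CPM in KO, against 803, 687 and 684 CPM in control. Its relative Map4k3 was also a member, at a ratio of 1.26, and other kinases related to them had ratios of 0.993 (Map4k1), 1.06 (Map4k4), 1.101 (Map4k5), 1.13 (Mink1) and 1.05 (Tnik). Mapk8ip3, a JNK scaffold and motor adaptor, had 272, 266 and 273 CPM in KO, against 245, 215 and 177 CPM in control, where the KO pools were flat and the controls were not.

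Dapk1, a calmodulin-regulated kinase linked to cell death, had 61.2, 56.6 and 54.5 CPM in KO, against 46.0, 41.7 and 44.5 CPM in control. Ptpdc1, a phosphatase, had 6.56, 6.08 and 5.97 CPM in KO, against 5.02, 4.62 and 4.55 CPM in control. Neither group of these genes showed a pool far from the rest. Fnip1, a partner of folliculin in AMPK and mTORC1 signalling that is also linked to mitochondrial gene expression in muscle, had 46.6, 45.9 and 51.2 CPM in KO, against 39.0, 38.7 and 33.4 CPM in control, while folliculin (Flcn) had a ratio of 1.14. The Wnt regulator Amer1, the phosphodiesterase Pde1b and the kinase Ulk3 had ratios of 1.42, 1.31 and 1.30. In a list of T cell receptor signalling genes 0 of 30 tested were called by edgeR or limma-voom and 1 was called lower by DESeq2 and 1 with the block; 1 was higher and 2 lower at an unadjusted p under 0.05, and the median log2 fold change was -0.04.

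Transcription factors and chromatin regulators numbered 17, with a median ratio of 1.28. Zfp950, a zinc finger protein, had 17.5, 15.1 and 15.1 CPM in KO, against 10.9, 11.7 and 9.49 CPM in control. Tbx6, a T-box factor of the early mesoderm, had 24.0, 23.5 and 29.3 CPM in KO, against 19.5, 17.7 and 12.7 CPM in control, with control pool 3 far below the others. Gli1, a target and effector of Hedgehog signalling, had 6.89, 6.04 and 5.82 CPM in KO, against 4.22, 4.58 and 4.15 CPM in control, and overlaps Arhgap9, which had a ratio of 1.02. Tet3, a dioxygenase that oxidises methylated cytosine, had 300.5, 250.4 and 253 CPM in KO, against 235, 226 and 169.9 CPM in control, while its relatives Tet1 and Tet2 had ratios of 1.20 and 1.12 with overlapping groups.

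The other 13 factors were Tgfb1i1, the clock repressor Per2, the meiotic methyltransferase Prdm9, the HUSH complex subunit Fam208a, Klf7, Arid3b, Trip6, Pou2f1 (OCT1), Ubp1, Atf7, Zfp420, Zfp692 and Zfp871, with ratios from 1.253 to 1.397. Per1 and Per3 had ratios of 1.06 and 0.950, and the clock gene Nr1d1 averaged 6.78 CPM in KO and 12.9 CPM in control with an adjusted p of 0.192 (edgeR). Among 241 zinc finger genes with a Zfp symbol and at least 5 CPM, 4 were members, 23 were above control and 6 below without overlap, and the median ratio was 1.03; over all genes of at least 5 CPM the shares were 8.26% above and 10.6% below.

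RNA processing and translation held 6 members. Leng8, a SAC3-domain protein, had 303, 276 and 405 CPM in KO, against 250.2, 239.8 and 217 CPM in control, and KO pool 3 was 1.398 times the mean of the other KO pools. Dqx1, a helicase-like protein, had 15.9, 15.2 and 20.4 CPM in KO, against 12.9, 12.4 and 11.97 CPM in control. Prpf39, a splicing factor of the U1 particle, had 124, 120.4 and 149 CPM in KO, against 106, 104 and 93.9 CPM in control. KO pool 3 was again the highest and control pool 3 the lowest in each of the 3. Mcts2, the Dicer partner Tarbp2 and the deadenylase Pan2 had ratios of 1.34, 1.26 and 1.26. Mcts2 lies within H13, which had a ratio of 0.940.

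Joining segments of the T cell receptor beta locus made up 4 of the 5 receptor members. Trbj1-7 had 6.01, 5.55 and 7.125 CPM in KO, against 5.21, 4.995 and 3.53 CPM in control. Trbj1-6 had 11.9, 11.2 and 10.4 CPM in KO, against 8.71, 8.92 and 7.75 CPM in control, and Trbj1-5 10.2, 10.2 and 10.9 CPM in KO, against 9.32, 7.14 and 7.35 CPM in control. These 3 segments are neighbours. Trbj2-3 and the delta constant gene Trdc, at ratios of 1.26 and 1.253, were the others. All 13 Trbj segments in the table had at least 5 CPM, and their median ratio was 1.18. Above control without overlap lay 6 and below 0, against 8.26% and 10.6% of all genes of at least 5 CPM. Of the 6, 4 were members chosen for this lack of overlap, so nothing is read from the count. The alpha and beta constant genes lay below 1, with ratios of 0.950 (Trbc1), 0.941 (Trbc2) and 0.884 (Trac), and the 8 Trav and Traj segments of at least 5 CPM had a median of 0.943. The segments are short and share reads with the rearranged receptor transcripts and with unspliced RNA of the locus, so their counts are uncertain.

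DNA repair, cell cycle and ubiquitin genes were few. Xrcc3, a protein of homologous recombination, had 8.53, 8.74 and 7.28 CPM in KO, against 6.73, 7.10 and 3.89 CPM in control, the groups nearly touching between KO pool 3 and control pool 2. Fbxo24, an F-box protein, had 8.87, 8.79 and 8.02 CPM in KO, against 7.79, 6.63 and 5.06 CPM in control. Uvssa, of transcription-coupled repair, had 31.1, 30.4 and 26.9 CPM in KO, against 25.7, 25.4 and 18.2 CPM in control. In each, control pool 3 was the lowest library and KO pool 3 the lowest KO library. The cyclin Ccnj had a ratio of 1.27. Among 18 tested p53 targets 0 were called by edgeR, DESeq2 or limma-voom, 1 was lower at an unadjusted p under 0.05 and with the block, and the median log2 fold change was -0.02.

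The 10 members of other or little described role include 2 genes known from the male germ line. Nup210l, a nucleoporin of the testis, had 6.22, 5.70 and 6.39 CPM in KO, against 4.68, 4.44 and 3.75 CPM in control. Acrbp, a protein of the sperm acrosome, had 32.7, 31.8 and 39.9 CPM in KO, against 26.3, 24.5 and 23.6 CPM in control. Fam102b had 14.8, 13.5 and 12.3 CPM in KO, against 10.3, 10.6 and 10.4 CPM in control, with the controls almost level. The rest were Begain, Ccdc62, Ankrd24, Tanc1, BC005561, Plekhn1 and Proser3, at ratios of 1.28 to 1.39.

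**Figure D4:**
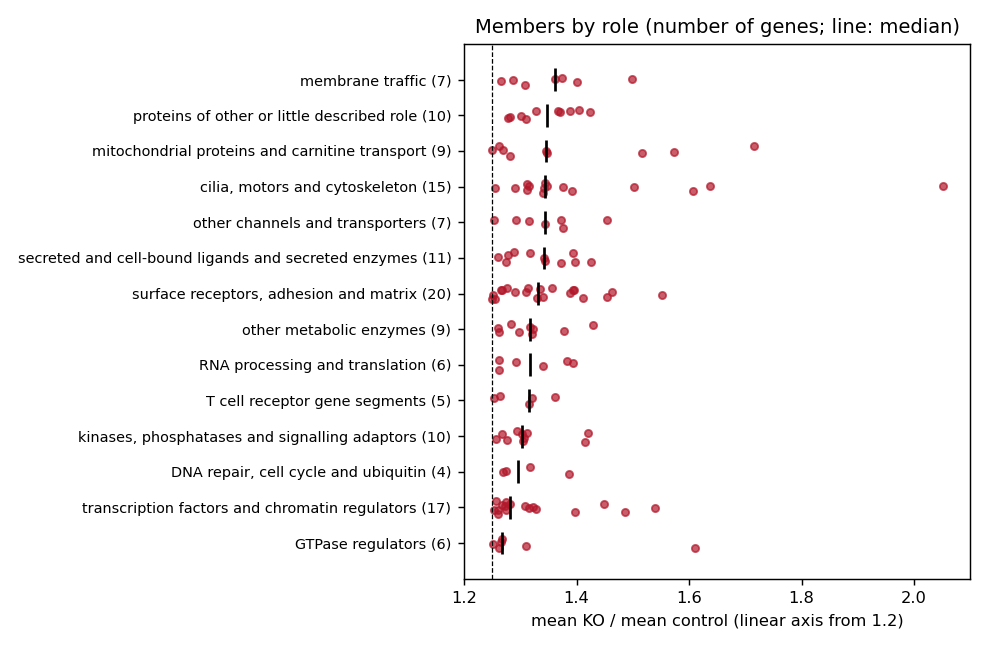
Each point is a member placed by its KO/control ratio (horizontal axis, linear, from 1.2) in its role group (rows, with the number of genes), the black line is the group's median and the dashed line the 25% threshold. Medians lie between 1.27 in GTPase regulators and 1.36 in membrane traffic, and Cfap74 at 2.05 is the point farthest right.

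The pools numbered 3 stood at the ends of the members' range more often than the others. KO pool 3 was the highest KO library in 85 of the 136 members (62.5%), against 42.2% of all genes of at least 5 CPM, and control pool 3 was the lowest control in 96 (70.6%), against 36.8%. The median member stood at 1.31, 1.27 and 1.38 times the control mean in KO pools 1 to 3, against 1.08, 1.01 and 0.919 times in control pools 1 to 3. Within same-numbered pairs the median ratio was 1.22, 1.248 and 1.53. In 20 members KO pool 3 was at least 25% above the mean of the other KO pools. Without both libraries numbered 3, the rule found 95 genes, of which 59 were members, and the median ratio of the 136 was 1.24.

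A list of transcripts that retain introns or reside in nuclear speckles was kept as a sign of RNA quality and nuclear RNA. It stood in the same order across pools as the members. In the members the rule itself puts every KO pool above every control pool, so only the order within each group was free. Of the 27 genes listed, the nuclear RNAs Malat1 and Neat1 were not found by symbol among the counted genes. Nor was any of a second list of 16 small nucleolar RNA host genes. All 25 genes found in the table were fitted above 0, and the median log2 fold change was 0.16. None (0) was called by edgeR, DESeq2 or limma-voom, 2 were called higher with the block, and 7 were higher at an unadjusted p under 0.05. Their summed level was 11173 to 12412 CPM in KO and 9920 to 11146 CPM in control. Relative to the control mean, the median gene of the list stood at 1.103, 1.07 and 1.14 in KO pools 1 to 3, against 1.07, 1.01 and 0.919 in control pools 1 to 3. The most counted genes of the list, Ddx5 and Srrm2, averaged 2096 and 1960 CPM in KO, against 2046 and 1677 CPM in control. The part of this in the members' ratios was not tested. Immediate early and dissociation genes, by contrast, were fitted above 0 in 2 of 18, with a median of -0.13, and 33 ribosomal protein genes had a median of -0.02. In both of those lists 0 genes were called by any of the fits and 0 had an unadjusted p under 0.05.

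**Figure D5:**
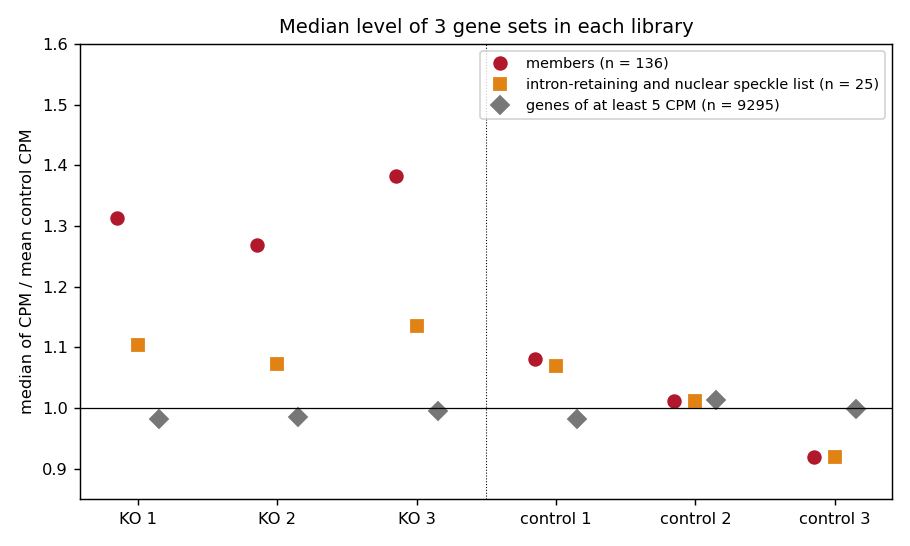
For each of the 6 pools (horizontal axis), points give the median over genes of CPM divided by the control mean (vertical axis) for 136 members (circles), 25 intron-retaining and nuclear speckle transcripts (squares) and 9295 genes of at least 5 CPM (diamonds). KO pool 3 is highest and control pool 3 lowest in both the members, at 1.38 and 0.919, and the speckle list, at 1.14 and 0.919, while all genes stay near 1.

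Where the members lie in the genome was a further property that the rule did not use. RefSeq matched 135 of them, and 70 (51.9%) overlapped the span of another gene, against 43.2% of all genes of at least 5 CPM. Their median span was 18.05 kb, against 23.5 kb. Neither comparison was matched on level. With noncoding RNA genes and pseudogenes left out, 7 pairs of members were direct neighbours. These were Pygm and Rasgrp2, Perm1 and Plekhn1, Fbxo24 and Lrch4, Tmie and Als2cl, and L1cam and Avpr2. The other 2 pairs lay among Trbj1-5, Trbj1-6 and Trbj1-7. Such pairs were not counted in other gene sets, so nothing is read from their number. The list of resting and central Treg genes, with 26 tested, had 1 called higher by edgeR, the member Als2cl, and 0 lower (2 at an unadjusted p under 0.05, 0 by limma-voom). Als2cl was also counted in the list of RAB exchange factors. DESeq2 called 4 higher and 1 lower, and edgeR with the block 5 higher and 1 lower. The list had 21 genes fitted above 0 and a median log2 fold change of 0.08.

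The thresholds cut through a continuous range. Lrch4, Acp6 and L1cam were just inside the 25% threshold, and Fam193b, Pla2g4f and Glt8d1, at 1.248 to 1.247, were just outside. Arhgap29, Nup210l and Tmem8b had the lowest mean levels inside, 5.19 to 5.21 CPM, and Trpt1 and Smarcd3, with 4.88 and 4.81 CPM, were among those just outside. Proser3, Cfap74 and Avpr2 had the narrowest gaps, with the lowest KO pool 1.003, 1.003 and 1.007 times the highest control. Xkrx, Plpp5 and Ash1l missed that condition at 0.999, 0.995 and 0.991.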

How the data were processed

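Read counts per gene for 3 KO and 3 control RNA libraries were taken as the authors deposited them; the labels call them HTSeq counts. Tools listed by the submitters' processing notes are Bowtie2, HISAT2, SAMtools, HTSeq, bedtools, Cufflinks and DESeq2, and the builds listed are mm9 and mm10, without roles; the strand setting of the counting is not given in the sources used here. Of 22553 Ensembl IDs, 22522 matched a symbol.

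CPM was the count over the column total times 1000000. Genes passing filterByExpr (minimum count 10, minimum total 15), 11990 in all, were compared between groups by edgeR 4.0.16 under R 4.3.3 (TMM scaling, quasi-likelihood F test, Benjamini-Hochberg adjustment, threshold 0.05), with DESeq2 1.42.0 and limma 3.58.1 as alternatives. The fit was run on simulated data as a check of the code only. Simulated libraries were drawn independently, without the shared deviations of same-numbered pools, so nothing about the members is read from that check. A count of 3 equals 0.109 to 0.157 CPM; such floors cover counting error only.

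Members, lists and tests were chosen with earlier results of these data known, and role groups were placed by hand once the members were listed. Values by library were given for the 12 members of largest ratio, the 8 of most CPM and, in each role group, the 3 with the widest gap between groups. The values of a few genes are not reported here. The other members with values by library (Fam189b, Flt3l, Gabbr1, Cd72, Ms4a6c, Cpt1b, Slc22a5, Fnip1) and the relatives of members were chosen after their values were seen. Same-numbered KO and control libraries deviated together (correlations of deviations from group means 0.327, 0.561 and 0.551; other pairings -0.540 to -0.030), so the fit with the replicate number as a block is given beside results it changes. All p-values rest on the differences between these pools.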

Additional observations from a re-analysis of the deposited data

How the results depend on the processing

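The number of genes meeting the rule was 136 and lay between 104 and 249 when 1 library was left out (215 without KO 2, 249 without control 1, 205 without control 2); it was 245 at a mean of at least 1 CPM, 90 at 10 CPM, 216 at a ratio of 1.2, 10 at a ratio of 1.5 and 258 without both libraries numbered 2. With TMM scaling it was 153 and with DESeq2 size factors 160. The condition within each same-numbered pair (replicate block) gave 179 genes. The members' median ratio was 1.26 to 1.38 with 1 library left out and 1.24 without both libraries numbered 3, an omission chosen after seeing the data.

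Genes called higher numbered 12. They were 76 with DESeq2, 3 with limma-voom and 236 with the replicate block; with 1 library left out 0 to 10, without both libraries numbered 2 none (0), and without both numbered 3 1. Genes called lower numbered 167, against 264 with DESeq2, 526 with the replicate block, 26 to 166 with 1 library left out, 54 without both numbered 2 and 105 without both numbered 3. The Tfam log2 fold change was -1.22 to -0.87 with 1 library left out, its call being lost without KO 1, KO 2, KO 3 or control 2 (adjusted p 0.0551 to 0.109, edgeR), and -1.09 without both numbered 2 (adjusted p 0.123). Calls in the lists numbered 8, and 0 to 3 with 1 library left out, 1 without both numbered 2 and 1 without both numbered 3. The ratios of the 53 members named by rule lay between 1.13 and 2.48 in 530 recomputations, and 51 fell below the 25% threshold; that none fell below 1 is fixed by how the members were chosen. The causes were not tested. Fewer libraries enter each omission, and members near 5 CPM carry the least depth.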
